A study of Mus musculus with 12 samples.

Results

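The measurement described here is the change in endoplasmic reticulum (ER) enrichment of each mRNA when the ribosome assembly factor Lsg1 was knocked down. ER enrichment is the log2 ratio of an mRNA's level on ER-labelled ribosomes to its level in whole-cell RNA of the same lysate. Its change is the mean ratio with Lsg1 siRNA minus the mean ratio with scramble siRNA. All 12 of the 12 libraries entered, and 17702 genes had enough counts to be tested. The cells were E14Tg2a.4 mouse embryonic stem cells grown with leukemia inhibitory factor, and their Rpl31, a protein of the large ribosomal subunit, bears a FLAG-TEV-AviTag tag (Rpl31-FTA). ALIBi, a proximity biotinylation system directed to the ER, marked the tagged ribosomes there, and these were affinity-purified. The 4 groups of 3 libraries were ER ribosome-bound RNA after scramble or after Lsg1 siRNA, and whole-cell RNA after each of these siRNAs. All 4 groups share the 1 tagged cell line and the labelling system, and the controls received scramble siRNA. The labels call the replicates biological, and do not say whether each was a separate culture or transfection, so the p-values measure the spread between these 6 lysates.

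Lsg1 is a GTPase that acts in the cytoplasm on the nearly finished 60S ribosomal subunit and releases the export adaptor Nmd3 from it. mRNAs of secreted and membrane proteins reach the ER when a signal peptide or a transmembrane segment emerges from the ribosome and is bound by the signal recognition particle, or by other routes after translation has begun, and the ribosome then docks on the Sec61 translocon. Cytosolic proteins are also made on ribosomes near the ER, so labelling there yields a graded enrichment and not a pure population.

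Each library held 38092178 to 56522114 counts in genes. All 10 embryonic stem cell markers checked were abundant, with the lowest whole-cell group mean at 326 CPM (read counts scaled to library size by TMM) for Klf4 and the highest at 1886 CPM for Dppa5a. The 13 tested mitochondrially encoded mRNAs, which are translated by ribosomes inside mitochondria, had median ER to whole-cell log2 ratios of -6.24, -6.11 and -5.80 in the scramble lysates, and the Lsg1 siRNA lysates lay within that range. A pair of libraries stood apart: the unnamed gene ENSMUSG00000119584 took 18595 CPM in ER-bound scramble replicate 3 and 14888 CPM in whole-cell Lsg1 siRNA replicate 3, against 1158 to 3991 CPM in the other 10. Both libraries enter the change of ER enrichment with a negative sign, so a high level in either lowers it. Calls without them are given below.

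Lsg1 mRNA itself changed most clearly. On ER-labelled ribosomes it stood at 142.5, 149 and 151 CPM with scramble siRNA and at 35.4, 42.5 and 52.5 CPM with Lsg1 siRNA. The whole-cell level was 136, 144 and 149 CPM with scramble siRNA and at 83.5, 96.7 and 114 CPM with Lsg1 siRNA. The groups did not overlap in either fraction, and the drop was larger on the ER-labelled ribosomes. The ER to whole-cell log2 ratio was 0.07, 0.05 and 0.02 in the scramble lysates and -1.24, -1.19 and -1.11 in the Lsg1 siRNA lysates. The remaining Lsg1 mRNA was thus present at a lower share on ER-labelled ribosomes than in the lysate, by a log2 change of -1.22 (SE 0.04, adjusted p = 8.22e-09, edgeR quasi-likelihood F-test, Benjamini-Hochberg). It is the gene the siRNA targets, and its change passed in 17 of 17 other analyses, at -1.27 to -1.10.

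Of the 17702 genes, 10 passed an adjusted p of 0.05 by edgeR with Benjamini-Hochberg adjustment (0.0565%), 3 of them higher (0.0169%) and 7 lower (0.0395%). At an unadjusted p under 0.05 there were 1539 genes (8.69%), 926 higher (5.23%) and 613 lower (3.46%). The number of calls depended on single lysates: it was 107 without scramble replicate 1, 3 without scramble replicate 3, 3 without Lsg1 siRNA replicate 3, and 1 without both of these lysates numbered 3. Precision followed abundance, with a median standard error (SE) of the log2 change of 0.39 below 1 CPM, 0.15 from 1 to 10 CPM, 0.058 from 10 to 100 CPM and 0.040 above 100 CPM. Changes of a few hundredths of a log2 unit in a single gene were not detectable at this precision.

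**Figure D1:**
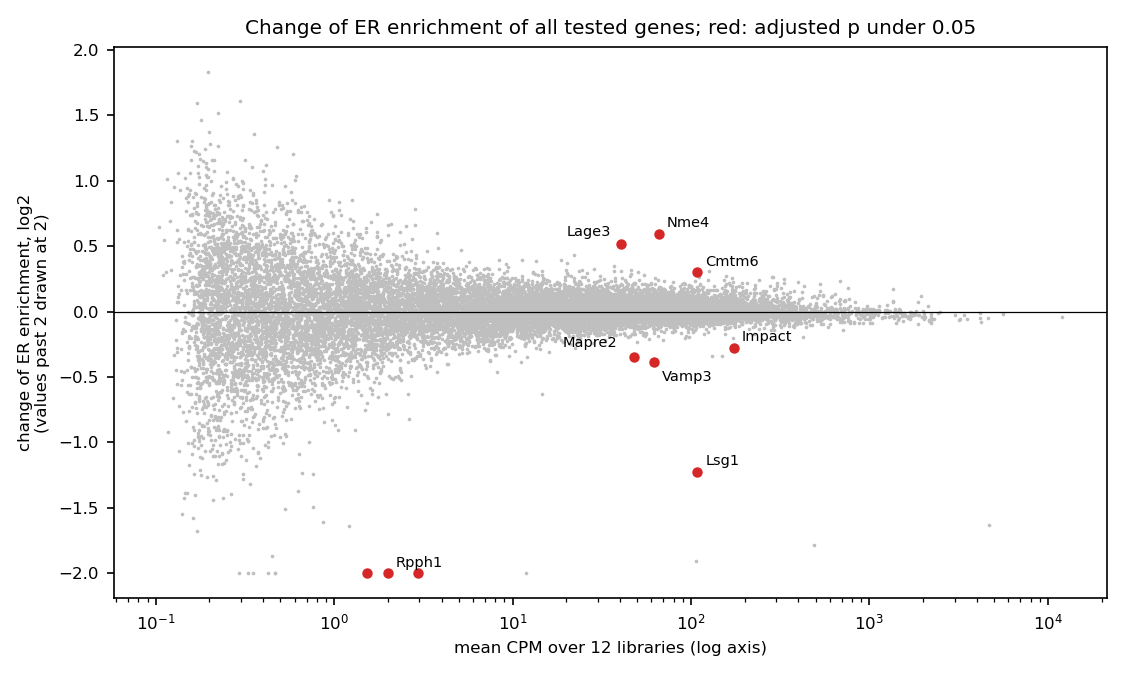
Change of ER enrichment (log2, Lsg1 minus scramble siRNA) against mean CPM on a log axis for 17702 genes, 1 point per gene, with the 10 genes that passed in red; the 2 unlabelled red points are unnamed genes and values past 2 are drawn at 2. The scatter narrows with abundance; the grey points between -2 and -1.5 above 100 CPM are Mir6236, Lars2 and ENSMUSG00000119584.1, singled out after their values were seen, which did not pass.

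The sequences of 4 genes show what the protein classes used below are based on. Each is part of the coding strand, read 5′ to 3′ from the GENCODE M21 annotation of GRCm38, with the codons of the most hydrophobic window in capitals; Cmtm6 and Sumf1 show an internal and an N-terminal segment, Vamp3 a segment at the very end of the protein, and Nme4 an N-terminus whose best window was below the minimum used. Cmtm6 lies at chr9:114737237-114737323 on the plus strand within 1 exon. Sumf1 lies at chr6:108185455-108185556, Vamp3 at chr4:151049033-151050925 with the coding bases of 3 exons joined, and Nme4 at chr17:26095384-26095452, all on the minus strand.
Cmtm6: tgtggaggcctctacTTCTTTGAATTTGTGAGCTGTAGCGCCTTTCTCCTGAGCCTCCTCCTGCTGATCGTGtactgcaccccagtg
Sumf1: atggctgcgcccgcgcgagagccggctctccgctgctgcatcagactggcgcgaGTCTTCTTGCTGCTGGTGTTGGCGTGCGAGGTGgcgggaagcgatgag
Vamp3: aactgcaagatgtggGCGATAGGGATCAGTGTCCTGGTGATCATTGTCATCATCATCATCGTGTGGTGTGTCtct
Nme4: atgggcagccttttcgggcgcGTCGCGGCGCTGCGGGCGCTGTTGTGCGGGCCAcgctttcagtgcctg

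Among the 3 genes whose ER enrichment rose, Nme4 encodes a nucleoside diphosphate kinase of mitochondria. It stood at 58.2, 50.4 and 52.9 CPM on ER-labelled ribosomes with scramble siRNA and at 99.8, 95.1 and 98.2 CPM with Lsg1 siRNA. Whole-cell RNA held 50.4, 51.5 and 51.0 CPM with scramble siRNA and 60.2, 60.9 and 62.8 CPM with Lsg1 siRNA. All 3 Lsg1 siRNA libraries were above the scramble libraries in both fractions, by a wider margin on the ER-labelled ribosomes. Its ER to whole-cell ratio rose by 0.60 on the log2 scale (SE 0.06, adjusted p = 0.000795, edgeR, Benjamini-Hochberg). The best window in its first residues had a mean hydropathy of 1.545, under the minimum of 2 used for a segment.

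Lage3, a subunit of the KEOPS complex that modifies tRNAs, crossed from depleted to enriched. It stood at 32.0, 29.5 and 30.4 CPM on ER-labelled ribosomes with scramble siRNA and at 46.6, 49.0 and 48.9 CPM with Lsg1 siRNA. The whole-cell values were 39.0, 39.3 and 39.9 CPM and 40.8, 44.1 and 45.0 CPM, and the groups did not overlap in either fraction. Its log2 ratio was thus below 0 in all 3 scramble lysates (-0.28, -0.41 and -0.39) and above 0 in all 3 Lsg1 siRNA lysates (0.19, 0.15 and 0.12), a change of 0.52 (SE 0.05, adjusted p = 0.000795, edgeR, Benjamini-Hochberg). Among the genes that passed, Lage3 and Lsg1 had log2 ratios of 1 sign in every scramble lysate and of the other sign in every Lsg1 siRNA lysate. Without both lysates numbered 3, which leaves 2 lysates per siRNA, the changes of Nme4 (0.60) and Lage3 (0.52) had an adjusted p of 0.134 each by edgeR with Benjamini-Hochberg adjustment.

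Cmtm6 encodes a membrane protein of the MARVEL family that helps keep PD-L1 at the cell surface. Its mRNA was enriched at the ER with either siRNA: ER-labelled ribosomes held 121, 114 and 116 CPM with scramble siRNA and 157, 149 and 139 CPM with Lsg1 siRNA, and whole-cell RNA held 86.2, 81.7 and 81.1 CPM and 88.3, 86.2 and 81.5 CPM. The ER-bound groups did not overlap, while the whole-cell groups did. The log2 ratio was 0.49, 0.48 and 0.52 in the scramble lysates and 0.83, 0.79 and 0.77 in the Lsg1 siRNA lysates, a rise of 0.30 (SE 0.04, adjusted p = 0.0112, edgeR, Benjamini-Hochberg). It lost the call when any of 5 of the 6 lysates was left out, scramble replicate 1 being the exception, with adjusted p-values by edgeR of 0.0790 to 0.103.

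Of the genes whose ER enrichment fell, Vamp3 encodes a SNARE of recycling endosomes that is held in the membrane by the C-terminal segment shown above. ER-labelled ribosomes held 68.7, 67.2 and 65.2 CPM with scramble siRNA and 44.7, 43.0 and 45.4 CPM with Lsg1 siRNA, and whole-cell RNA held 72.4, 75.4 and 72.2 CPM and 59.3, 64.1 and 67.4 CPM. All 3 Lsg1 siRNA libraries were below the scramble libraries in each fraction. The ER to whole-cell ratio fell by 0.39 on the log2 scale (SE 0.05, adjusted p = 0.0138, edgeR, Benjamini-Hochberg). The call was lost without scramble replicate 3, Lsg1 siRNA replicate 2 or Lsg1 siRNA replicate 3, with adjusted p-values by edgeR of 0.0679, 0.0939 and 0.146.

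Impact, an inhibitor of the eIF2 kinase Gcn2, stood at 187, 189 and 191 CPM on ER-labelled ribosomes with scramble siRNA and at 147, 150 and 139 CPM with Lsg1 siRNA. The whole-cell values were 187, 184 and 186 CPM and 180, 170 and 168 CPM, so the groups were apart in both fractions and closer in whole-cell RNA. Its ratio fell by 0.28 on the log2 scale (SE 0.04, adjusted p = 0.0258, edgeR, Benjamini-Hochberg). Mapre2, a protein of the EB family that binds growing microtubule ends, stood at 55.1, 52.1 and 53.5 CPM on ER-labelled ribosomes with scramble siRNA and at 36.3, 38.1 and 39.5 CPM with Lsg1 siRNA. Its whole-cell values were 50.4, 53.3 and 53.2 CPM and 44.3, 46.9 and 50.7 CPM, and these overlapped. Its ratio fell by 0.35 on the log2 scale (SE 0.05, adjusted p = 0.0258, edgeR, Benjamini-Hochberg). Impact lost the call without scramble replicate 2 or 3 or Lsg1 siRNA replicate 1 or 3, and Mapre2 without scramble replicate 3 or any of the Lsg1 siRNA replicates, with adjusted p-values by edgeR of 0.0790 to 0.209 across both. With 4 group means in place of the lysate block, Cmtm6, Impact and Mapre2 had adjusted p-values by edgeR of 0.202, 0.0528 and 0.0979. Without both lysates numbered 3, Cmtm6, Vamp3, Impact and Mapre2 had changes of 0.32, -0.37, -0.26 and -0.34 and adjusted p-values by edgeR of 0.401, 0.647, 0.650 and 0.647. Without the 2 libraries that stood apart alone, and with 4 group means, Cmtm6, Impact and Mapre2 lost the call, at adjusted p-values by edgeR of 0.447, 0.0916 and 0.294.

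In 7 of these 7 named protein-coding genes the fitted whole-cell difference between the siRNAs had the sign of the ER-bound difference and was smaller. The genes were selected by a test of the gap between these differences, on the same values. The share of such genes among all tested genes was not computed. For Cmtm6 and Mapre2 the whole-cell groups overlapped. The log2 differences on ER-labelled ribosomes and in whole-cell RNA were -1.77 and -0.55 for Lsg1, 0.86 and 0.27 for Nme4, 0.65 and 0.14 for Lage3, and 0.34 and 0.040 for Cmtm6. They were -0.59 and -0.20 for Vamp3, -0.38 and -0.11 for Impact and -0.50 and -0.15 for Mapre2. In these genes, selected for a gap between the fractions, the larger difference was thus on the ER-bound side of the ratio.

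**Figure D2:**
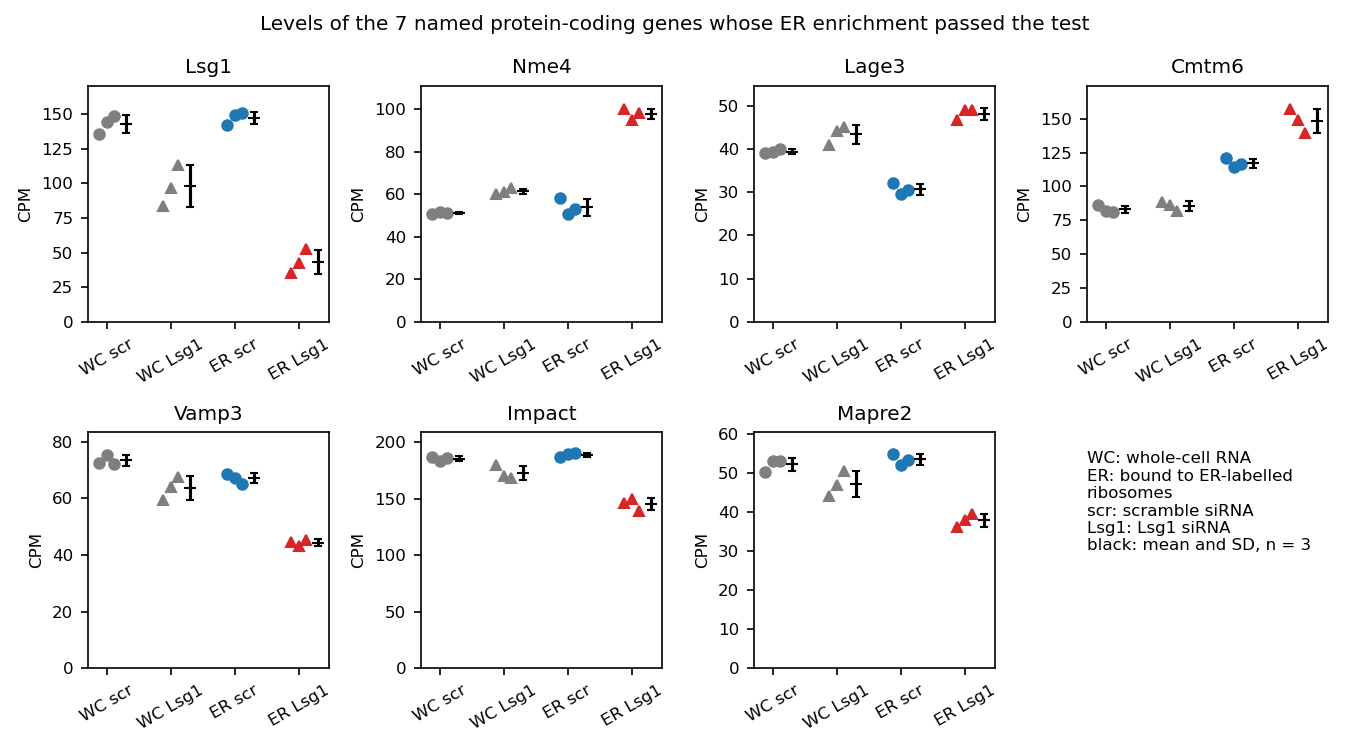
CPM of the 7 named protein-coding genes that passed, in each of the 12 libraries, with the mean and SD (n = 3) in black beside each group. In each panel the ER-bound Lsg1 siRNA libraries stand clear of the ER-bound scramble libraries, and the whole-cell groups lie closer together.

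The other 3 genes that passed rest on the libraries that stood apart. Rpph1, the RNA of ribonuclease P, was at 18.6 CPM in whole-cell Lsg1 siRNA replicate 3 and at most at 2.15 CPM in the other 11 libraries, with a log2 change of -5.44 (SE 0.58, adjusted p = 0.00149, edgeR, Benjamini-Hochberg). The unnamed gene ENSMUSG00002076161.1 was at 13.7 CPM in that library and at most at 1.50 CPM elsewhere, with a change of -4.33 (SE 0.67, adjusted p = 0.0393, edgeR, Benjamini-Hochberg). The unnamed gene ENSMUSG00002075795.1 was at 16.8 CPM in ER-bound scramble replicate 3, at 15.2 CPM in whole-cell Lsg1 siRNA replicate 3 and at most at 0.870 CPM elsewhere, and its lysates overlapped between the siRNAs (change -7.90, SE 0.91, adjusted p = 0.00312, edgeR, Benjamini-Hochberg). With those 2 libraries left out and 4 group means fitted, the values were 0.20 for Rpph1, 0.26 for ENSMUSG00002076161.1 and -0.66 for ENSMUSG00002075795.1, and none of the 3 passed. These were the largest fitted changes among the 10 genes.

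The next genes in the higher direction by p were 9530068E07Rik, at 0.35 (SE 0.06, adjusted p = 0.0600, edgeR, Benjamini-Hochberg), and Sumf1, at 0.43 (SE 0.07, adjusted p = 0.0605, edgeR, Benjamini-Hochberg). Sumf1 encodes the ER enzyme that activates sulfatases, and its ratio was 0.87, 0.74 and 0.71 in the scramble lysates and 1.29, 1.07 and 1.26 in the Lsg1 siRNA lysates. Its level on ER-labelled ribosomes was 25.1 ± 0.70 CPM with scramble siRNA and 33.7 ± 2.12 CPM with Lsg1 siRNA (SD, n = 3), against 14.7 ± 0.50 and 14.6 ± 0.58 CPM in whole-cell RNA. Neither passed here, and both passed with scaling by size factors or by library totals, with no filter on low counts, and with the replicate number as block.

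Proteins were sorted by the hydrophobic stretches in their sequence, an imperfect proxy for signal peptides and transmembrane segments that reads no annotation. By this rule the membrane protein Srprb had no segment, and the glycolytic enzyme Pkm had 1 internal segment. An N-terminal segment was an 11-residue window starting in the first 30 residues with a mean Kyte-Doolittle hydropathy of at least 2, and an internal segment a 19-residue window past residue 40 with a mean of at least 1.6. Of the 14582 tested protein-coding genes with a sequence, 5476 had a segment and 9106 had none. The median change of ER enrichment was 0.044 with a segment and -0.0068 without, against 0.0047 over all tested genes. The change was above 0 for 63.7% of genes with a segment and for 46.4% of those without, against 51.8% of all tested genes. The median with a segment was 0.029 without scramble replicate 3 and 0.024 with no filter on low counts.

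The classes with the most hydrophobic segments were furthest from 0. The median change was 0.073 for the 1518 genes with an N-terminal and an internal segment, 0.062 for the 1205 genes with 2 or more internal segments, and 0.036 for the 1255 genes with an N-terminal segment alone. It was 0.013 for the 1248 genes with 1 internal segment and 0.0040 for the 250 genes with a tail segment, medians that were positive in 14 and 11 of 17 alternatives. The N-terminal class was lowest without scramble replicate 3, at 0.011, with 0.022 without scramble replicate 2, and the class with 2 or more internal segments was lowest without scramble replicate 1, at 0.035. With no filter on low counts these 2 classes were at 0.021 and 0.040, and the class with an N-terminal and an internal segment at 0.047. Among all tested genes, the 3 Lsg1 siRNA lysates all lay above the 3 scramble lysates in 8.07% and all below in 6.51%. Of genes with an N-terminal and an internal segment these shares were 17.5% and 2.90%, of those with 2 or more internal segments 16.1% and 3.15%, and of those without a segment 6.07% and 8.46%.

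The medians of the single lysates showed how far the classes stood from the lysate spread. With 2 or more internal segments the median ER to whole-cell log2 ratio was 0.25, 0.29 and 0.29 in the scramble lysates and 0.36, 0.34 and 0.32 in the Lsg1 siRNA lysates. With an N-terminal and an internal segment it was 0.51, 0.52 and 0.55 and then 0.62, 0.61 and 0.55. These groups did not overlap, though the closest lysates of the latter class differed little, and genes without a segment lay lower in each Lsg1 siRNA lysate (-0.062, -0.066 and -0.061, then -0.080, -0.069 and -0.076). The N-terminal class overlapped (0.53, 0.53 and 0.51, then 0.61, 0.55 and 0.53), as did the tail class and the class with 1 internal segment. With 3 lysates against 3 no exact permutation p below 0.10 can be reached for a single value, and none is given for the medians.

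**Figure D3:**
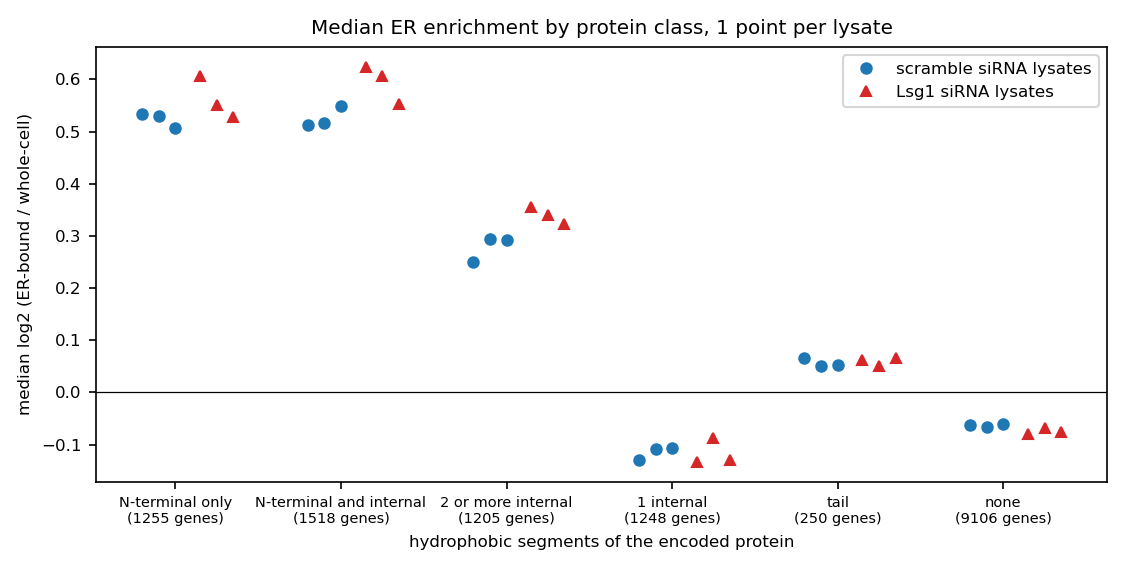
Median log2 ratio of ER-bound to whole-cell level for 6 protein classes, 1 point per lysate, scramble siRNA as blue circles and Lsg1 siRNA as red triangles. The red points lie above the blue in the classes with an N-terminal and an internal segment and with 2 or more internal segments, and below them for genes with no segment.

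The shift lay in the ER-bound fraction. For genes with an N-terminal and an internal segment, the median log2 difference between Lsg1 and scramble siRNA was 0.074 on ER-labelled ribosomes and -0.00035 in whole-cell RNA. With 2 or more internal segments it was 0.058 and -0.0063. The median of genes with a segment was above that of genes without one in each of 4 ranges of abundance, from 0.024 against -0.019 below 1 CPM to 0.048 against -0.0073 above 100 CPM. The same order held in each quartile of protein length, from 0.052 against 0.0018 for proteins of up to 286 residues to 0.032 against -0.0067 for those of 731 residues or more. Of the 100 protein-coding genes with the smallest p and a higher ratio, 74 encoded a segment, and of the 100 with a lower ratio 18 did, against 37.6% of all tested protein-coding genes.

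Genes of the secretory pathway lay on the same side, although none of the listed genes passed the test of the change. The 19 tested genes of the Sec61 translocon and the TRAP complex, the channel and its accessory proteins, had a median change of 0.072, and 15 were above 0. In 8 of the 19 (42.1%, against 8.07% of all tested genes) the Lsg1 siRNA lysates all lay above the scramble lysates, and in none all below. The median was 0.11 without scramble replicate 1. The smallest p-values were those of the TRAP subunits Ssr3, with ratios of 0.67, 0.62 and 0.63 and then 0.83, 0.83 and 0.76 (change 0.16, SE 0.04), and Ssr1, with 0.79, 0.71 and 0.72 and then 0.93, 0.92 and 0.84 (change 0.15, SE 0.04). Their adjusted p-values by edgeR with Benjamini-Hochberg adjustment were 0.213 and 0.266.

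The 16 genes of signal peptidase and oligosaccharyltransferase, which cleave signal peptides and attach N-glycans as chains enter the ER, had a median change of 0.088. All 16 were above 0, and 4 (25%, against 8.07% of all tested genes) had all Lsg1 siRNA lysates above. Without scramble replicate 3 the median was 0.040. The signal peptidase subunits Sec11a and Spcs2 had changes of 0.13 (SE 0.04) and 0.16 (SE 0.05). The 10 genes of the ER membrane protein complex, which inserts membrane segments, had a median of 0.11 with 9 above 0. In 0 of 10 (0%, against 8.07% of all tested genes) all Lsg1 siRNA lysates lay above. In 1 of 10 (10%, against 6.51%) they all lay below. The median of this complex was 0.060 without scramble replicate 2, 0.065 without scramble replicate 3 and 0.056 without Lsg1 siRNA replicate 1. Emc4 and Emc8 had changes of 0.13 (SE 0.06) and 0.11 (SE 0.05), with overlapping lysates. The 6 genes of tail-anchored insertion had a median of 0.037 with 6 above 0, led by the co-chaperone Sgta at 0.11 (SE 0.04) and Get4 at 0.089 (SE 0.04). Their median ranged from 0.011 without scramble replicate 3 to 0.072 without scramble replicate 1, with 0.065 without Lsg1 siRNA replicate 3 and 0.017 with no filter on low counts.

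Of the signal recognition particle and its receptor, 9 of 10 genes were tested, with a median of 0.019 and 5 above 0. This median had no stable sign: it was -0.037 without scramble replicate 3, -0.0023 without scramble replicate 2, 0.0012 without Lsg1 siRNA replicate 1 and 0.052 without scramble replicate 1. The receptor's membrane subunit Srprb had a change of 0.17 (SE 0.04), and its partner subunit Srpr one of -0.079 (SE 0.04). The ratio of Srprb was 0.66, 0.65 and 0.63 in the scramble lysates and 0.79, 0.86 and 0.81 in the Lsg1 siRNA lysates, with no overlap, while the lysates of Srpr overlapped. The adjusted p-values by edgeR with Benjamini-Hochberg adjustment were 0.250 and 0.660.

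In the ER lumen, the 41 chaperone and disulfide isomerase genes had a median of 0.064 with 37 above 0. The median was 0.016 without Lsg1 siRNA replicate 1 and 0.036 without scramble replicate 2. The disulfide reductase Dnajc10 had a change of 0.17 (SE 0.04) and the membrane-bound oxidoreductase Tmx3 one of -0.19 (SE 0.04), the latter with ratios of 0.35, 0.32 and 0.33 and then 0.16, 0.15 and 0.13. The 31 genes of ER-associated degradation had a median of 0.056 and 23 above 0, with Erlin1, which takes part in degrading activated IP3 receptors, at 0.24 (SE 0.04) and the Derlin Derl1 at 0.19 (SE 0.05), and their median was 0.035 without scramble replicate 3 and 0.037 with no filter on low counts. The 48 genes of N-glycan and GPI anchor synthesis had a median of 0.071 and 42 above 0, and 14 (29.2%, against 8.07% of all tested genes) had all Lsg1 siRNA lysates above. Without scramble replicate 3 their median was 0.042. Alg5, which makes dolichol-phosphate glucose, stood at 0.20 (SE 0.05), and Alg13, the catalytic subunit of a sugar transferase of the same pathway, at -0.13 (SE 0.03).

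The genes that shape the ER or tether it to other membranes (42 tested) had a median of 0.062 with 33 above 0, among them the lipid-transfer tether Esyt1 at 0.21 (SE 0.05) and Tmem33 at 0.19 (SE 0.05), and their median was 0.040 without scramble replicate 3. The 48 genes of the COPI and COPII coats and their cargo receptors had a median of 0.054, with the COPII GTPase Sar1a at 0.18 (SE 0.04) and the cargo receptor Cnih4 at 0.18 (SE 0.05). Their median was 0.017 without scramble replicate 3, 0.035 without Lsg1 siRNA replicate 1 and 0.034 with no filter on low counts. The 31 genes of cholesterol synthesis had a median of 0.067 with 23 above 0, which was 0.026 without scramble replicate 3, 0.029 without Lsg1 siRNA replicate 2 and 0.043 without scramble replicate 1.

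Products that pass through the pathway lay on the same side. The 87 secreted, matrix and cell-surface genes had a median of 0.068 with 68 above 0; 19 (21.8%, against 8.07% of all tested genes) had all Lsg1 siRNA lysates above, and 6 (6.90%, against 6.51%) all below. Without scramble replicate 3 their median was 0.035. Plxnb2, a semaphorin receptor, stood at 0.21 (SE 0.04). Lefty1, a secreted inhibitor of Nodal signalling, went the other way, with ratios of 1.30, 1.30 and 1.29 and then 1.14, 1.01 and 1.09 (change -0.22, SE 0.05, adjusted p = 0.198, edgeR, Benjamini-Hochberg). The 214 tested solute carriers outside the mitochondrial Slc25 family had a median of 0.081, with the zinc importer Slc39a14 at 0.21 (SE 0.04) and the nucleoside transporter Slc29a1 at 0.25 (SE 0.05), and their median was 0.040 without scramble replicate 1. The 202 tested Tmem genes, which are named for predicted transmembrane segments, had a median of 0.060 with 144 above 0, and Tmem131 and Tmem18 stood at 0.20 (SE 0.04) and 0.32 (SE 0.07). The Tmem median was 0.029 without scramble replicate 3 and 0.036 with no filter on low counts.

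**Figure D4:**
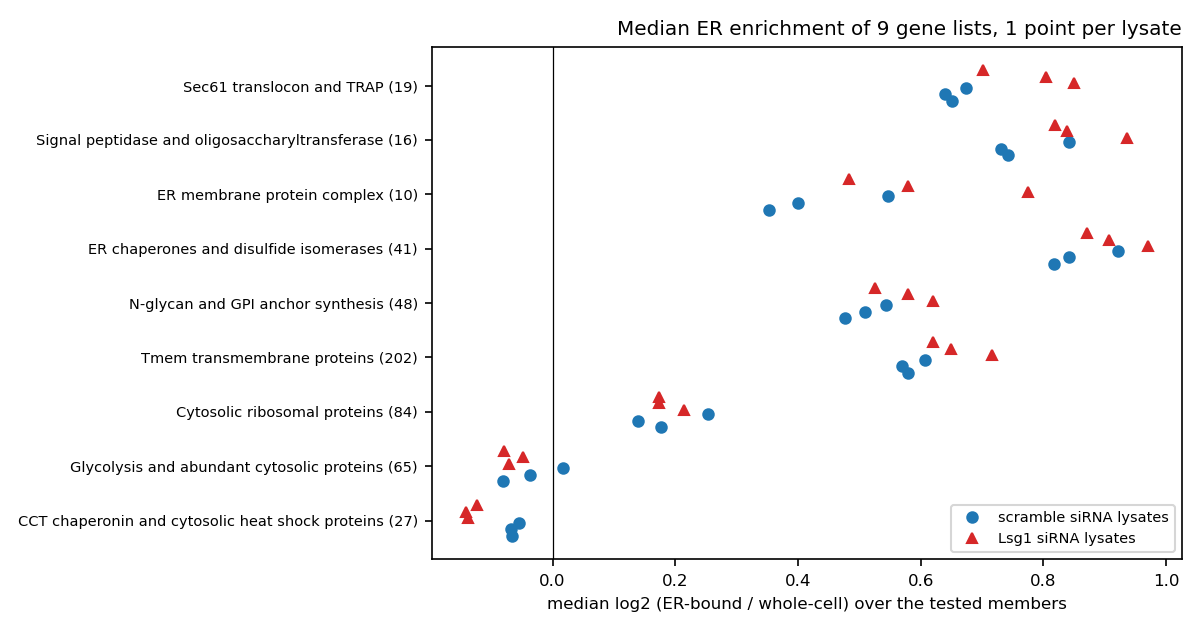
Median log2 ratio of ER-bound to whole-cell level over the tested members of 9 gene lists (number of members in brackets), 1 point per lysate, scramble siRNA as blue circles and Lsg1 siRNA as red triangles. The red points of the translocon and Tmem lists lie to the right of all blue points, those of the chaperonin list to the left, and the other 6 lists overlap between the siRNAs.

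Cytosolic chaperones and enzymes lay below 0. Of 27 genes of the CCT chaperonin and other heat shock proteins, 2 were above 0, the median was -0.053, and in 11 (40.7%, against 6.51% of all tested genes) the Lsg1 siRNA lysates all lay below. Their median ratio was -0.054, -0.068 and -0.066 in the scramble lysates and -0.14, -0.14 and -0.12 in the Lsg1 siRNA lysates. Cct3, a chaperonin subunit, stood at -0.090 (SE 0.03), and Hspd1, whose product folds proteins in the mitochondrial matrix, at -0.092 (SE 0.03). Of 65 genes of glycolysis and other abundant cytosolic proteins 17 were above 0, the median was -0.035, and 17 (26.2%, against 6.51%) had all Lsg1 siRNA lysates below. That median was -0.019 without scramble replicate 1, -0.074 without scramble replicate 3, -0.057 without Lsg1 siRNA replicate 2 and -0.055 with no filter on low counts. The tubulin Tubb2b stood at -0.14 (SE 0.04) and the glycolytic enzyme Pkm at -0.082 (SE 0.02), and no member of either list passed.

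The lists nearest to the function of Lsg1 lay near the median of all genes. The 22 late 60S maturation factors had a median of -0.0062 with 10 above 0, with the co-chaperone Dnajc21, which helps recycle 60S export factors, at -0.082 (SE 0.04) and Mrto4 at 0.091 (SE 0.05). The 84 cytosolic ribosomal protein genes had a median of -0.0017 and a middle 50% of -0.019 to 0.016, with Rpl4 at -0.063 (SE 0.02) and Rpl18 at 0.070 (SE 0.04). The 58 translation factors had a median of -0.0038. Over the alternatives the medians ranged from -0.026 to 0.0063 for the late 60S factors and from -0.033 to 0.035 for the ribosomal proteins. The range was -0.031 to 0.0068 for the translation factors. Nuclear-encoded proteins of mitochondria lay there too, with medians of 0.0096 for 76 respiratory chain genes, -0.0056 for 78 mitochondrial ribosomal proteins and -0.0016 for 44 Slc25 carriers. The respiratory chain median ranged from -0.033 to 0.035 over the alternatives. The 38 tested genes of the unfolded protein and Atf4 response had a median of -0.0056 and 18 above 0. Their smallest p-values were those of the amino acid transporter Slc7a5, at 0.20 (SE 0.05), and the ER stress kinase Eif2ak3, at 0.24 (SE 0.08). Neither passed, with adjusted p-values by edgeR with Benjamini-Hochberg adjustment of 0.278 and 0.438.

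**Figure D5:**
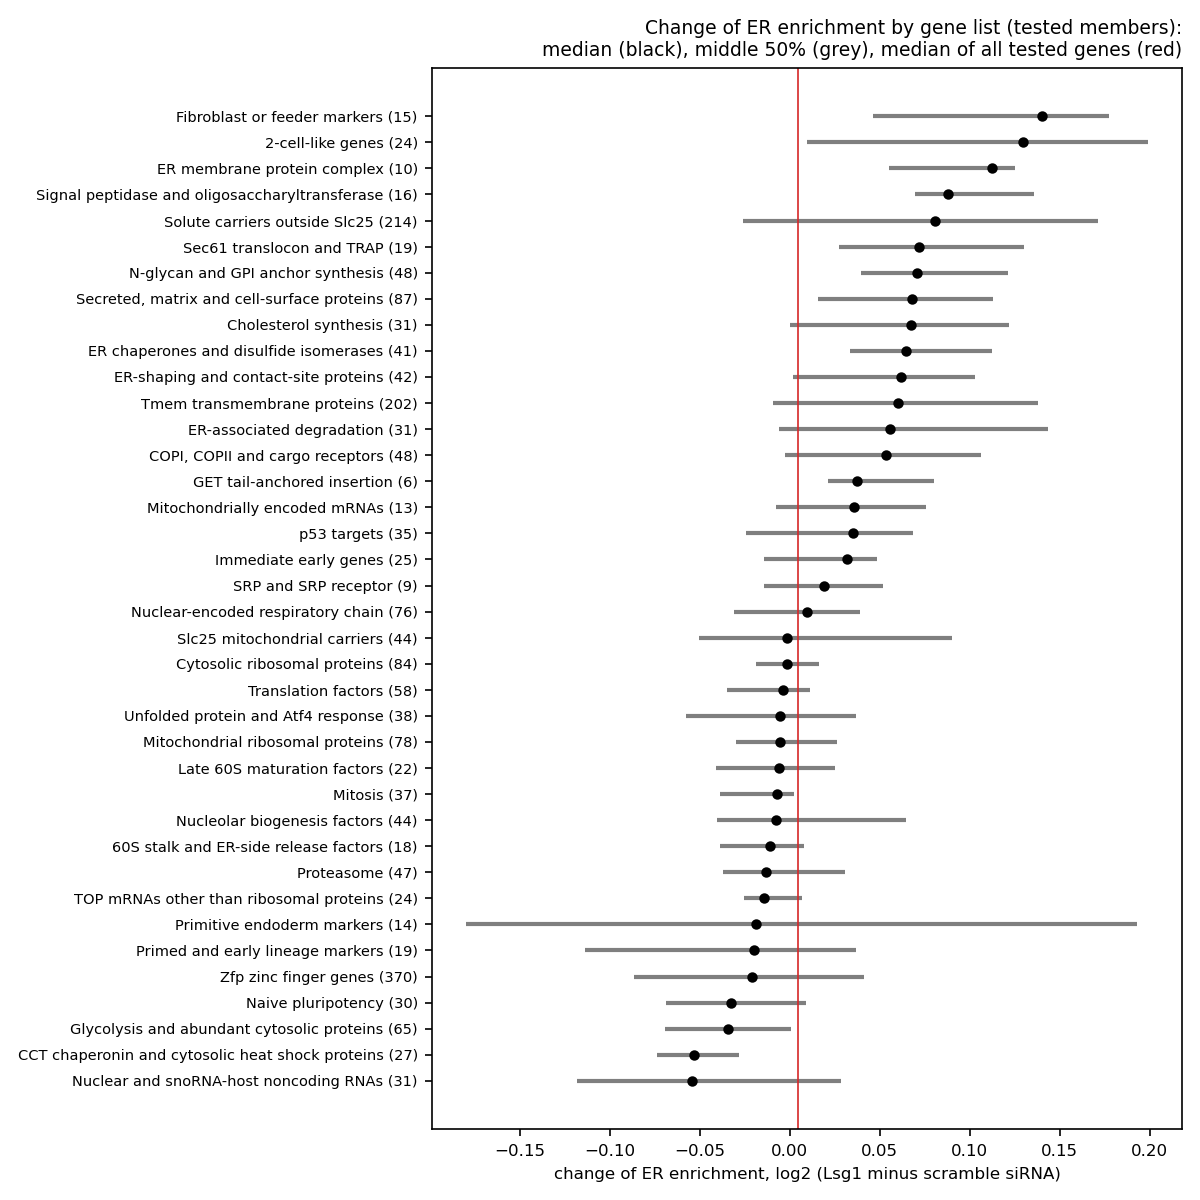
Median change of ER enrichment (log2, Lsg1 minus scramble siRNA) of 38 gene lists as black points, with the middle 50% of tested members as grey lines and the median of all tested genes as a red line; the number of tested members is in brackets. Most lists of ER and secretory genes lie right of the red line, cytosolic and mitochondrial ribosomal proteins near it, and cytosolic chaperones left of it.

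Stem cell genes were also compared. The 30 naive pluripotency genes had a median of -0.033 with 9 above 0, and 8 (26.7%, against 6.51% of all tested genes) had all Lsg1 siRNA lysates below. The median was -0.017 without both lysates numbered 3 and -0.053 with no filter on low counts. Nanog, a core transcription factor, had ratios of 0.21, 0.18 and 0.18 and then 0.03, 0.02 and 0.10 (change -0.14, SE 0.03, adjusted p = 0.220, edgeR, Benjamini-Hochberg). Tdgf1, a cell-surface co-receptor of Nodal, stood at 0.12 (SE 0.04) with overlapping lysates. The summed level of the 10 stem cell markers was 8635 to 8721 CPM in whole-cell RNA with scramble siRNA and 8604 to 8698 CPM with Lsg1 siRNA.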

How the data were processed

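RNA-seq was done on ER-ribosome-bound and whole-cell RNA of 6 lysates. The genome build was GRCm39, the aligner STAR 2.7.9a and the counter HTSeq 0.11.2, per the submitters' processing notes, which also name DESeq2. The raw counts per gene were deposited by the authors, 1 table per library with 55416 gene IDs and 5 summary lines. The summary lines were left out; reads in no feature made up 2.65% to 5.26% per library. Neither the counter's strand setting nor the release of its annotation is stated in the sources used here. Names came from GENCODE M21 (GRCm38) by gene ID, and 94.0% of IDs matched.

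Counts were scaled by TMM, filtered by filterByExpr and tested in R 4.3.3 by the quasi-likelihood F-test of edgeR 4.0.16 (prior count 2, 4 residual degrees of freedom). The coefficient of variation that remained after the lysate and ER terms of the model was 3.75%. The model held a term per lysate and the ER effect within each siRNA; the pairing comes from the design text, by which whole-cell RNA is the input of the purification. Deviations from group means of libraries of 1 lysate correlated with r between -0.031 and 0.28 over 10646 genes. P-values were adjusted by Benjamini-Hochberg over all tested genes, with a threshold of 0.05. Per-lysate ratios are differences of log2 CPM. Normalisation to totals means that changes are relative to all other mRNAs of a library.

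Protein classes were computed from translated GENCODE M21 coding sequences in place of the RefSeq protein table named in the plan. The comparison and the 38 gene lists were chosen with earlier results of these data known, and lists are described by counts and medians. Named genes were Lsg1; all genes past the threshold with a name, at least 5 CPM in a group mean and lysates that did not overlap; the 5 smallest p where fewer than 5 passed in a direction; 2 members of each list by p; and genes whose ratio changed sign in every lysate. Some genes that this rule selects are not reported here. The 2 unnamed genes were added after their values were seen. The test was checked on simulated counts with the same dispersion for all genes and no outlying library. The planted changes were larger than those of Cmtm6, Vamp3, Impact and Mapre2. The check thus does not cover changes of that size or the libraries that stood apart. Alternatives were another scaling (size factors, library totals), no low-count filter or a stricter one (2 CPM in 3 libraries), DESeq2 1.42.0, limma-voom (limma 3.58.1), other blocks, a GC and length offset (splines with 5 degrees of freedom), and lysates left out.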

Additional observations from a re-analysis of the deposited data

Results flagged for a closer look

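The difference of ER enrichment between the siRNAs passed the interaction test for 10 genes, listed here with their log2 change. The named protein-coding genes were Lsg1 (-1.22), Nme4 (0.60), Lage3 (0.52), Cmtm6 (0.30), Vamp3 (-0.39), Impact (-0.28) and Mapre2 (-0.35). The others were Rpph1 (-5.44), ENSMUSG00002075795.1 (-7.90) and ENSMUSG00002076161.1 (-4.33), whose levels were high in 1 or both of the libraries that stood apart.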

How the results depend on the processing

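The count of 10 genes (3 higher, 7 lower) moved with most settings, and the cause was not tested. With no replicate block (4 group means) it was 4 (2 higher, 2 lower), and with the replicate number as block in place of the lysate 13 (7 higher, 6 lower). DESeq2 size factors in edgeR gave 16 (9 higher, 7 lower), library totals 17 (10 higher, 7 lower), no filter on low counts 96 (44 higher, 52 lower) and the stricter filter 7 (3 higher, 4 lower). DESeq2 gave 9 (5 higher, 4 lower), limma-voom 9 (4 higher, 5 lower) and the GC and length offset 11 (6 higher, 5 lower). Without both lysates that held a library standing apart it was 1 (0 higher, 1 lower), and without those 2 libraries alone, chosen after seeing the data, 4 (2 higher, 2 lower). Leaving out 1 lysate in turn gave 3 to 107 genes, with 2 to 70 higher and 1 to 37 lower. Of the main 10 genes, 10 remained with size factors, 9 with the replicate number as block and 4 with no block. The labels tie same-numbered lysates of the 2 siRNAs by number alone. Deviations of such libraries correlated with r of 0.13 to 0.38 in the ER-bound pairs and of -0.0096 to 0.31 in the whole-cell pairs. Of the 12 libraries, 10 correlated best with their own number, a hint from the data and not from the design. Each had 3 candidates, the libraries of the other siRNA in its fraction. Every correlation counts for both of its libraries, so the 12 outcomes are not independent.

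Lsg1 passed in 17 of 17 alternatives, Nme4 and Lage3 in 16, Vamp3 in 13, Impact and Mapre2 in 10 and Cmtm6 in 9. Rpph1 (0.20) and ENSMUSG00002076161.1 (0.26) turned positive without the 2 libraries alone. The medians of the translocon list (0.052 to 0.11), signal peptidase and oligosaccharyltransferase (0.040 to 0.12), the ER membrane protein complex (0.056 to 0.14) and genes with any hydrophobic segment (0.024 to 0.060) were positive in 17 of 17 alternatives, and that of the CCT list was negative in all (-0.075 to -0.042). Those of ER chaperones (0.016 to 0.090), COPI and COPII genes (0.017 to 0.064), cholesterol synthesis (0.026 to 0.079) and the N-terminal class (0.011 to 0.047) were positive in all 17 but shrank further. The median of genes without a segment was 0.0037 with library totals, against 0.015 over all tested genes, and negative in the other 16. The median of all tested genes itself ranged from -0.012 with no filter on low counts to 0.015 with library totals. The list medians are not corrected for such shifts. Depth limits single-gene statements to changes well above the SE given by abundance.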

Other observations

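Lists outside the main comparison gave the following values, and no member of them passed apart from Rpph1 of the noncoding RNAs. The 15 tested of 19 fibroblast or feeder markers had a median change of 0.14, with Thy1 at 0.16 (SE 0.07) and the smooth-muscle marker Tagln at 0.17 (SE 0.08), and the median was 0.029 without both lysates numbered 3. Their summed level was 383 to 387 CPM on ER-labelled ribosomes with scramble siRNA and 395 to 401 CPM with Lsg1 siRNA, and 295 to 320 and 304 to 322 CPM in whole-cell RNA. Most of that level was Vim, which stem cells also express. On ER-labelled ribosomes with scramble siRNA, Thy1 stood at 46.2, 40.3 and 38.7 CPM and the collagen gene Col5a1 at 27.6, 26.4 and 25.9 CPM. Tagln was at 8.73, 8.74 and 8.77 CPM there, and the lowest member, the collagen gene Col3a1, at 0.16 CPM. The remaining tested members lay between Tagln and Col3a1. The part of these markers in the other results was not tested.

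The 24 tested 2-cell-like genes, which mark a rare state of stem cell cultures, had a median of 0.13 with 18 above 0, among them Zscan4e at 0.55 (SE 0.18). In 1 of the 24 (4.17%, against 8.07% of all tested genes) all Lsg1 siRNA lysates lay above, and in 0 (against 6.51%) all below. These genes were scarce, with a median level of 1.61 CPM. The median change was 0.0084 without scramble replicate 1 and 0.076 without Lsg1 siRNA replicate 3. Zscan4 genes have near-identical copies, and how their reads were assigned was not tested. The 370 tested Zfp genes of zinc finger proteins had a median of -0.021, the 47 proteasome genes -0.013, the 37 mitosis genes -0.0074 and the 35 p53 targets 0.035. The Zfp median was 0.0084 without Lsg1 siRNA replicate 1, and the p53 median was -0.014 without Lsg1 siRNA replicate 3 and 0.015 without scramble replicate 1. The 25 immediate early genes had a median of 0.032, with the phosphatase Dusp6 at 0.16 (SE 0.04), and that median ranged from -0.0016 to 0.041 over the alternatives.

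The remaining lists had medians of -0.011 for the 18 genes of the 60S stalk and ER-side release factors, -0.0078 for 44 nucleolar biogenesis factors, -0.014 for 24 mRNAs with a 5′ TOP motif other than ribosomal proteins, -0.054 for 31 nuclear and snoRNA-host noncoding RNAs, -0.020 for 19 primed and early lineage markers and -0.019 for 14 primitive endoderm markers. Of the 60S stalk list 5 of 18 members were above 0 (27.8%) and of the TOP list 7 of 24 (29.2%), against 51.8% of all tested genes. Over the 17 alternatives the median was positive in 1 for the proteasome, the 60S stalk and the TOP mRNAs, and in 2 for mitosis and the nucleolar factors. The 13 mitochondrially encoded mRNAs had a median of 0.036, which ranged from -0.0995 without scramble replicate 1 to 0.156 without scramble replicate 3 and was positive in 13 of 17 alternatives. Some of these mRNAs were near the floor on ER-labelled ribosomes, such as mt-Co2 at 0.020, 0.020 and 0.021 CPM with scramble siRNA. Ratios of such members rest on few reads. The medians of the noncoding RNAs ranged from -0.105 to -0.0081, of the primed markers from -0.11 to 0.027 and of the primitive endoderm markers from -0.084 to 0.0011.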
